A study of Mus musculus with 8 samples.

Results

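The signal of 10 genes of megakaryocytes and platelets was followed across sorted mouse bone marrow progenitors: Itga2b, Itgb3, Gp1bb, Gp5, Gp9, Vwf, Pf4, F2r, Plek and Slc14a1. They were taken by name, and every probe set (a set of array features that together report 1 transcript) to which the platform annotation gave exactly 1 of these symbols was kept. This gave 16 probe sets for 10 genes, of 34945 single-symbol probe sets for 18193 genes in all. A further probe set, assigned to both Septin5 and Gp1bb, was not used because it cannot be read for either gene alone.

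The study asked how telomere dysfunction changes expression in 2 kinds of progenitor, the common myeloid progenitor (CMP) and the granulocyte-monocyte progenitor (GMP). G0 TERTER/+ mice, labelled normal, carried 1 modified telomerase reverse transcriptase allele, and G4/G5 TERTER/ER mice, labelled telomere dysfunctional, carried the modified allele on both chromosomes and came from late generations of intercrossing. The allele is a fusion of telomerase reverse transcriptase with the estrogen receptor, so the control mice carried it too. All mice were males of a mainly C576BL/6 background, the labels' spelling, and no source used here states their age. Each of the 4 groups (G0 CMP, G4/G5 CMP, G0 GMP and G4/G5 GMP) held 2 samples, each sorted from a pool of 4 mice, of between 5000 and 20000 cells. Each sample was run on its own Affymetrix array, so there were 8 arrays. Because animals were pooled, the spread measured is that between pools, with 2 pools per group.

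Megakaryocytes arise from early myeloid and stem cell stages, and their genes are already transcribed in part of the cells sorted as CMP, whereas GMP are committed to granulocytes and monocytes. Platelets stick to injured vessels through the glycoprotein Ib-IX-V complex, which binds von Willebrand factor, and aggregate through the integrin alpha-IIb beta-3, which binds fibrinogen. Transcription of these genes is known to depend on GATA1 with its partner FOG1 and on ETS-family factors such as FLI1. In RNA from a sorted population, fewer cells of a type and less RNA per cell cannot be told apart.

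Binding sites for GATA and ETS factors are the known feature of megakaryocyte promoters, so the 250 bases before the annotated start were searched for them. Of the 10 genes, 7 had an entry in the RefSeq promoter table (build GRCm38.p6); Itgb3, Vwf and Slc14a1 had none. The letters searched, on both strands, were AGATAA, also AGATAG, also TGATAA and also TGATAG for GATA, and AGGAAG or else CGGAAG for ETS; none of these overlapped another in the matches found. Gp5 (chr16:30310782-30311031, minus strand) held 3 GATA matches and 1 ETS match, and Gp1bb (chr16:18622404-18622653, minus strand) held 1 of each. Gp9 (chr6:87777820-87778069, plus strand) held 1 ETS match 16 bases before the start, Pf4 (chr5:90772185-90772434, plus strand) held 1 ETS match 9 bases before the start, and Itga2b (chr11:102469884-102470133, minus strand) held 2 ETS matches. These 5 promoters are printed 5′ to 3′ on the gene's strand because they hold a match, with the matched letters, or their reverse complement, in capitals.
Gp5: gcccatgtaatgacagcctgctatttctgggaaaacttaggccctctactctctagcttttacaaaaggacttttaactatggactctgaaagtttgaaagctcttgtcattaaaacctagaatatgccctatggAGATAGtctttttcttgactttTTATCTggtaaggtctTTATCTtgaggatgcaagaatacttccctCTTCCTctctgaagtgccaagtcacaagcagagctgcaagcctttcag
Gp1bb: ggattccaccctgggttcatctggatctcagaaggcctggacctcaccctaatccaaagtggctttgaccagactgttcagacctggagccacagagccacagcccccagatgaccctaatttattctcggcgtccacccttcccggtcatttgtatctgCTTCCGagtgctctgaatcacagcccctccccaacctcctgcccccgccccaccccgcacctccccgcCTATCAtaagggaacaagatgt
Gp9: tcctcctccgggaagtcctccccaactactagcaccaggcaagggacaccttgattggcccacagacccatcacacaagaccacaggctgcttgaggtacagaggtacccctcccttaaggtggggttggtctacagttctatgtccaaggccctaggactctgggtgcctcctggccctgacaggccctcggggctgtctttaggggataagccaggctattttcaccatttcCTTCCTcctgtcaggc
Itga2b: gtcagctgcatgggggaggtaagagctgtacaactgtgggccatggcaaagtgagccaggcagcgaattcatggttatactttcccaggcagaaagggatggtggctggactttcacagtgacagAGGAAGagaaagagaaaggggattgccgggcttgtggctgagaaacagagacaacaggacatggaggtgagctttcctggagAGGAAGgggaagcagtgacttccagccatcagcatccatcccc
Pf4: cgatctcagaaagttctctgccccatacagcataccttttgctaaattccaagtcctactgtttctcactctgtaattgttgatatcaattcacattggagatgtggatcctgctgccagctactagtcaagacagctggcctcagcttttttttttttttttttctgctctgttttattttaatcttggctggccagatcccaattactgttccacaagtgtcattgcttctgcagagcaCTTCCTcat
The same letters occurred in 26.5% (GATA) and 39.2% (ETS) of 32851 promoters of this length, and both kinds together in 9.21%. Of the 7 promoters of these genes, 2 held GATA letters, 5 held ETS letters and 2 held both. The promoters of F2r and Plek held neither. A match of letters is a description of the sequence and not a measured binding site.

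Values are the authors' MAS5 signals, brightness estimates on a linear scale set so that each array has a trimmed mean of 100. Median signals of the 8 arrays ran from 14.3 to 18.5, and 31.6% to 35.2% of probe sets reached a signal of 50. Marker genes were compared between the sorted progenitors in G0. Fcgr3 and Fcgr2b, Fc gamma receptor genes, rose in GMP by 3.73 ± 0.77 and 2.08 ± 0.27 (limma adjusted p = 0.0147 and 0.00364). Cd34, a progenitor surface marker gene, had -0.53 ± 0.33 and did not pass (limma adjusted p = 0.268). Elane, the neutrophil elastase gene of GMP, rose in GMP against CMP in G0 by 3.42 ± 0.40 (log2, SE; limma adjusted p = 0.00277), and Kit, the stem cell factor receptor, fell by 1.02 ± 0.27 (limma adjusted p = 0.0337). The array of G4/G5 CMP pool 1 stood apart. Its summed signal of 10 neutrophil marker genes was 56526, against 214 in G4/G5 CMP pool 2 and 290 to 294 in G0 CMP. On the first principal component, which held 54.5% of the variance, it lay at -3.62 while the other CMP arrays lay between -37.8 and -30.7. Fcgr3, an Fc gamma receptor gene of the kind of surface marker that separates GMP from CMP in a sort, read 617.5 on it and 72.2 in pool 2, against 38.7 and 83.9 in G0 CMP and 731.9 to 1457 in GMP. For the 10 genes, values between progenitors in G4/G5, between genotypes in CMP and in the interaction rest on this array, and they are also given without it. The G4/G5 counts of other gene lists include it.

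For the tests, log2(signal + 10) was fitted with limma, and the brightest probe set stood for each gene. A gene was tested if its signal reached 50 on at least 2 arrays. All 10 genes passed this filter and were among the 8886 tested. Of these, 5 (Itgb3, Gp1bb, Gp5, Gp9 and Vwf) were below 50 on all 4 GMP arrays and so passed only through CMP arrays. Pool 1 is always given first. Differences are on the log2(signal + 10) scale, which understates the change of dim genes. Each is given with its standard error, which is the same for a gene in every comparison except the interaction because the spread was estimated over all 8 arrays.

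**Figure D1:**
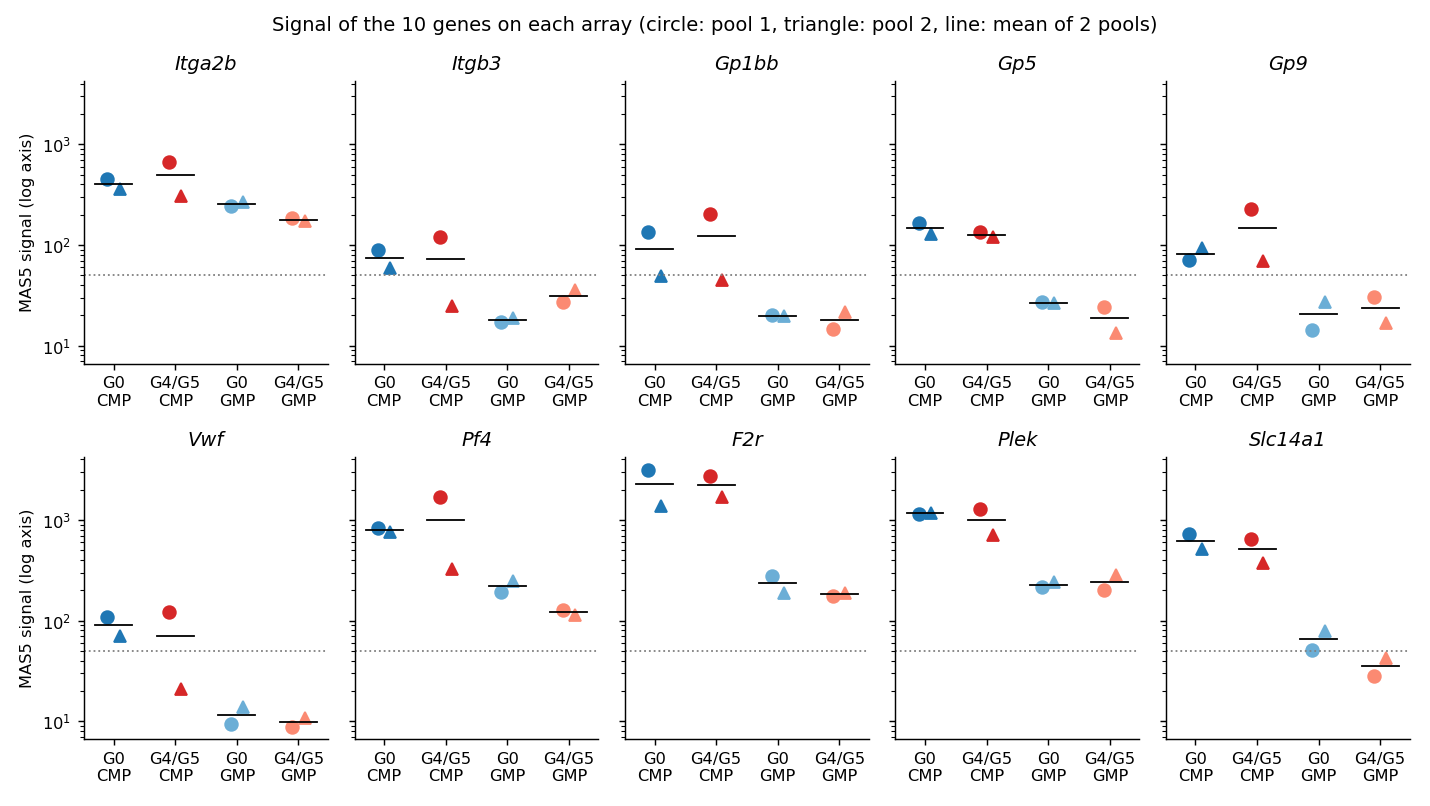
MAS5 signal (log axis) of the brightest probe set of each of the 10 genes on the 8 arrays. Circles are pool 1, triangles pool 2, the short lines the mean of the 2 pools of a group, and the dotted line the filter at 50. All 10 genes were lower on both G0 GMP arrays than on both G0 CMP arrays, and circles lie above triangles for every gene in G4/G5 CMP.

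The integrin that binds fibrinogen was read from its alpha and beta chains. Itga2b (CD41), the chain used to mark megakaryocytes, had signals in CMP of 447.2 and 356.0 (G0) and of 669.7 and 309.0 (G4/G5), and in GMP of 242.7 and 265.4 (G0) and of 183.8 and 171.1 (G4/G5). GMP arrays were lower than CMP arrays in both genotypes without overlap. It fell by 1.31 ± 0.31 from CMP to GMP in G4/G5 (limma adjusted p = 0.0339). Leaving out G4/G5 CMP pool 1 gave -0.77 (limma adjusted p = 0.0301). In G0 the difference was -0.63 ± 0.31 and did not pass (limma adjusted p = 0.170). Itgb3 (CD61), the beta chain, which also pairs with the alpha-V integrin chain, gave CMP signals of 89.5 and 58.6 for G0 mice and 120.8 and 24.5 for G4/G5 mice, and GMP signals of 17.3 and 18.9 for G0 mice and 26.9 and 35.9 for G4/G5 mice. Its G0 groups did not overlap, but in G4/G5 the second CMP pool lay below both GMP pools. The differences between progenitors were -1.55 ± 0.54 in G0 (limma adjusted p = 0.0747) and -0.71 ± 0.54 in G4/G5 (limma adjusted p = 0.411). Without G4/G5 CMP pool 1 the latter turned to 0.25. A second Itgb3 probe set never exceeded 3.07 on any array, below the filter, and correlated with the first at Pearson r = 0.26 over the 8 arrays.

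Gp5, Gp9 and Gp1bb encode subunits of the glycoprotein Ib-IX-V complex. Gp5, which encodes the glycoprotein V subunit, had signals in CMP of 163.8 and 129.6 (G0) and of 133.6 and 119.3 (G4/G5), and in GMP of 27.0 and 26.5 (G0) and of 24.3 and 13.5 (G4/G5). It had the closest CMP pools of the 3 subunits in both genotypes, and its CMP and GMP arrays were well apart. It fell from CMP to GMP by 2.08 ± 0.25 in G0 (limma adjusted p = 0.00302) and fell by 2.26 ± 0.25 in G4/G5 (limma adjusted p = 0.00244). Gp9, the glycoprotein IX subunit, gave CMP signals of 70.1 and 93.8 for G0 mice and 224.9 and 69.1 for G4/G5 mice, and GMP signals of 14.4 and 27.1 for G0 mice and 30.5 and 16.8 for G4/G5 mice. Every CMP array exceeded every GMP array, and G4/G5 CMP pool 1 was the highest. Gp9 fell by 2.05 ± 0.49 in G4/G5 (limma adjusted p = 0.0365), a call lost without G4/G5 CMP pool 1 (-1.26, limma adjusted p = 0.0609), and differed by -1.60 ± 0.49 in G0 (limma adjusted p = 0.0509). Gp1bb, the glycoprotein Ib beta chain, had signals in CMP of 135.5 and 48.8 (G0) and of 201.4 and 45.4 (G4/G5), and in GMP of 20.3 and 19.5 (G0) and of 14.7 and 21.4 (G4/G5). Its GMP arrays were all below its CMP arrays, while pool 1 was far above pool 2 in CMP of both genotypes. Its differences of -1.63 ± 0.61 in G0 (limma adjusted p = 0.0922) and -1.96 ± 0.61 in G4/G5 (limma adjusted p = 0.0773) did not pass. Without G4/G5 CMP pool 1 the latter was -0.99 (limma adjusted p = 0.198). A second Gp1bb probe set stayed between 12.7 and 20.5 on all 8 arrays and below the filter.

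Vwf and Pf4 are secreted from platelet alpha granules. Vwf, the adhesive ligand of the glycoprotein Ib-IX-V complex, which endothelial cells also make, gave CMP signals of 109.6 and 71.0 for G0 mice and 121.3 and 21.1 for G4/G5 mice, and GMP signals of 9.43 and 13.9 for G0 mice and 8.89 and 10.8 for G4/G5 mice. All CMP arrays were above all GMP arrays, the nearest being G4/G5 CMP pool 2. Vwf fell by 2.19 ± 0.59 in G0 (limma adjusted p = 0.0341) and differed by -1.69 ± 0.59 in G4/G5 (limma adjusted p = 0.101). Without G4/G5 CMP pool 1 the G4/G5 difference was -0.65 (limma adjusted p = 0.251). The G0 call was lost without any 1 of the 4 G0 pools or of the 2 G4/G5 GMP pools, fits in which fewer of all genes passed too. The G0 difference ran from -2.47 to -1.91 when arrays were left out. Of 16 endothelial and stromal marker genes, 11 stayed below 50 on all arrays, among them Cdh5 (VE-cadherin, at most 8.98) and Kdr (VEGF receptor, at most 20.3). The summed signal of the 16 genes was 543 to 766 in CMP and 261 to 348 in GMP. The 3 that passed the filter (Egfl7, Eng and Col1a2) fell from CMP to GMP in both, where 10.2% (G0) and 6.29% (G4/G5) of all genes did. Of these 3, Col1a2 was below 50 on every GMP array and so passed the filter only through CMP arrays. Their part in the Vwf difference was not tested. Pf4 (CXCL4), a chemokine stored in alpha granules, had signals in CMP of 828.7 and 755.1 (G0) and of 1682 and 323.0 (G4/G5), and in GMP of 191.6 and 247.7 (G0) and of 127.8 and 114.1 (G4/G5). The groups did not overlap, and the G4/G5 CMP pools were the farthest apart. Pf4 fell by 2.52 ± 0.59 in G4/G5 (limma adjusted p = 0.0342) and differed by -1.81 ± 0.59 in G0 (limma adjusted p = 0.0613). The G4/G5 difference was -1.35 without CMP pool 1 (limma adjusted p = 0.00497) and -3.69 without CMP pool 2.

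F2r and Plek act in platelet activation, and Slc14a1 is a transporter. F2r, the thrombin receptor PAR1, is the main thrombin receptor of human platelets, whereas mouse platelets are known to use PAR3 and PAR4. It gave CMP signals of 3158 and 1365 for G0 mice and 2755 and 1674 for G4/G5 mice, and GMP signals of 280.5 and 189.8 for G0 mice and 176.7 and 190.2 for G4/G5 mice. CMP and GMP arrays were widely separated in both genotypes. It fell by 3.11 ± 0.38 in G0 (limma adjusted p = 0.00321) and fell by 3.48 ± 0.38 in G4/G5 (limma adjusted p = 0.00244). F2rl3, which encodes PAR4, differed by -0.30 ± 0.28 in G0 (limma adjusted p = 0.469), and F2rl2, which encodes PAR3, stayed below the filter, at 33.2 or less.

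Plek, pleckstrin, the main protein kinase C substrate of platelets, had signals in CMP of 1140 and 1177 (G0) and of 1277 and 714.0 (G4/G5), and in GMP of 215.5 and 239.8 (G0) and of 200.1 and 281.0 (G4/G5). Every GMP array was below every CMP array. Plek fell by 2.30 ± 0.26 in G0 (limma adjusted p = 0.00261) and fell by 1.96 ± 0.26 in G4/G5 (limma adjusted p = 0.00499). Slc14a1, the urea transporter of red cells and kidney vessels, gave CMP signals of 720.7 and 515.1 for G0 mice and 650.2 and 374.0 for G4/G5 mice, and GMP signals of 51.5 and 79.2 for G0 mice and 28.0 and 42.1 for G4/G5 mice. The CMP and GMP arrays were again far apart. It fell by 3.06 ± 0.31 in G0 (limma adjusted p = 0.00187) and fell by 3.50 ± 0.31 in G4/G5 (limma adjusted p = 0.00127).

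The further probe sets of these genes that passed the filter gave the same calls when each was tested on its own among 14743 probe sets. For F2r the second probe set had G0 signals of 1560 and 594 in CMP and 109 and 53.4 in GMP, and fell by 3.49 ± 0.48 (limma adjusted p = 0.00449). The second Slc14a1 probe set fell by 3.05 ± 0.31 in G0 (limma adjusted p = 0.00175), and the other 2 of Plek had -2.37 ± 0.23 and -1.12 ± 0.29 (limma adjusted p = 0.00175 and 0.0318). The pairs of probe sets for these 3 genes correlated at Pearson r from 0.90 to 0.99 over the 8 arrays, which they share. Both F2r probe sets are of the _s_at type, whose probes match more than 1 transcript.

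Counted together, 5 of the 10 genes fell from CMP to GMP in G0 and 0 rose, where 10.2% of all genes tested fell and 10.6% rose. All 10 had non-overlapping lower groups, as did 33.1% of all genes, and 9 lay below -1, as did 4.54%. Their median difference was -1.95, against -0.02 for all genes. Itgb3, Gp1bb, Gp5, Gp9 and Vwf passed the filter only through CMP arrays, so the filter itself favoured a fall in these. Of the other genes, F2r, Plek and Slc14a1 fell in G0, and these with Itga2b and Pf4 fell in G4/G5. In G4/G5, 7 of the 10 fell and 0 rose, where 6.29% of all genes fell and 4.18% rose; 9 had non-overlapping lower groups (33% of all genes), and the median was -2.01 against -0.04. At an unadjusted p under 0.05, 9 of the 10 met the threshold in G0 (36.5% of all genes) and 9 in G4/G5 (29.4%). Gp5, F2r, Plek and Slc14a1 fell in both genotypes. With the paired pools of each cell type as a replicate block, 8 fell in G0, the 3 added being Itgb3 (limma adjusted p = 0.0287), Gp1bb (limma adjusted p = 0.0114) and Pf4 (limma adjusted p = 0.0407). With the block, 9 fell in G4/G5, the 2 added being Gp1bb (limma adjusted p = 0.0107) and Vwf (limma adjusted p = 0.0404). Over all 8886 genes, 2356 passed in G0 and 1465 in G4/G5 with the block, against 1845 and 930 without it. The spread was estimated over all groups, so arrays outside a comparison also moved its counts. Leaving out either G4/G5 CMP pool, more of the 10 and more of all genes passed in G0, while the median stayed at -1.95. In G4/G5 the median over the 10 genes was -1.31 without CMP pool 1 and -2.78 without CMP pool 2. The genes that fell in both genotypes also fell in G4/G5 without CMP pool 1: Gp5 had -2.19, F2r -3.12, Plek -1.55 and Slc14a1 -3.11. The G4/G5 median was -2.07 without G4/G5 GMP pool 1 and -2.06 without pool 2, and stayed at -2.01 without either G0 GMP pool. Itga2b, Gp9 and Pf4 lost their G4/G5 calls without any 1 of the 4 GMP pools, and Plek (-1.73) without G4/G5 GMP pool 1. Fewer of all genes passed in these fits as well. In each such fit the lone array of a group is assumed to vary like the others.

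**Figure D2:**
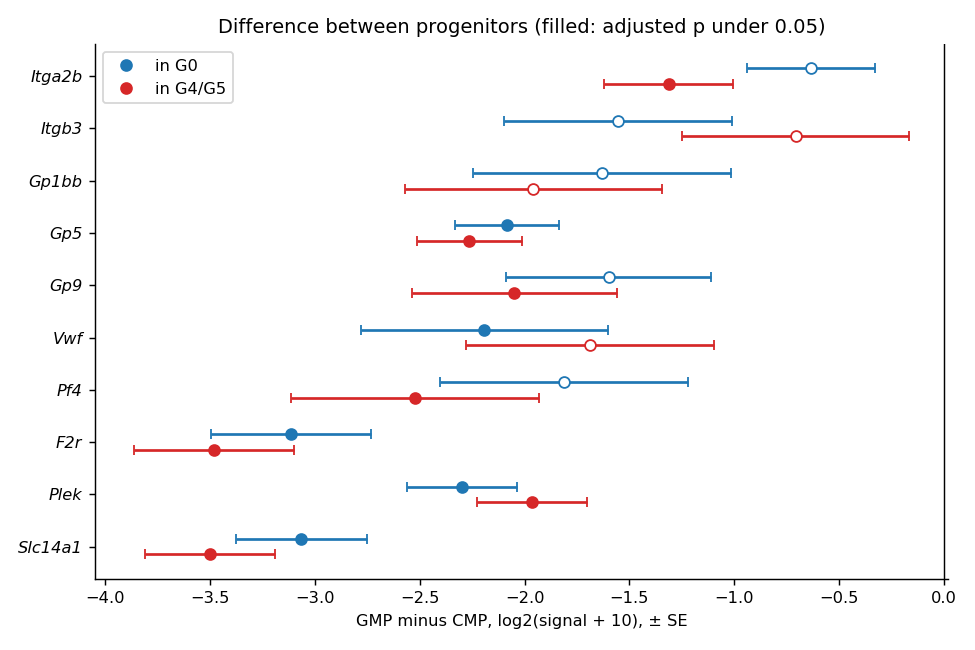
Difference GMP minus CMP on the log2(signal + 10) scale, with its standard error, for each gene in G0 (blue) and G4/G5 (red); filled points have a limma adjusted p under 0.05. All 20 points lie below 0, from -3.50 for Slc14a1 to -0.63 for Itga2b.

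Markers of other lineages moved with this comparison. Of 9 erythroid markers tested, 3 fell from CMP to GMP in G0 and 1, Tfrc, the transferrin receptor, rose; in G4/G5, 6 fell and 1 rose. Of 12 stem cell markers tested, 7 fell in G0 and 6 in G4/G5. Of the 7, Mecom, Esam, Tek, Fhl1, Slamf1 and Mllt3 were below 50 on every GMP array. They passed the filter only through CMP arrays, so the filter itself favoured a fall in these. Among all genes tested, 10.2% fell and 10.6% rose in G0, and 6.29% fell and 4.18% rose in G4/G5. The summed stem cell marker signal was 1757 to 2637 in CMP and 1015 to 1300 in GMP, and the summed erythroid signal 4040 to 6267 in CMP and 2077 to 2730 in GMP. What part these other cell types had in the members' difference was not tested. Of 6 genes of mature platelets, 2 stayed below 50 on every array, Tubb1 (beta-1 tubulin, at most 22.6) and Gp6 (the collagen receptor, at most 16.0), while Selp and Treml1 passed the filter and Ppbp and Clec1b reached 50 on 1 array. The summed signal of the 6 genes was 188 to 497 in CMP and 88.1 to 164 in GMP.

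Between genotypes in CMP, 0 of the 10 genes passed, where 0.0113% of all genes tested did. At an unadjusted p under 0.05 the count was also 0, against 13.4% of all genes. The G0 and G4/G5 arrays overlapped for all 10, whereas 14.9% of all genes were lower and 21.7% higher without overlap. Differences ran from -0.62 ± 0.59 for Vwf (limma adjusted p = 0.682) to 0.58 ± 0.49 for Gp9 (limma adjusted p = 0.640), with a median of -0.14 against 0.04 for all genes. The standard errors ran from 0.25 for Gp5 to 0.61 for Gp1bb, and a p above the threshold does not show that the genotypes had equal levels. The sign depended on which G4/G5 pool was read. Without G4/G5 CMP pool 1 all 10 differences were below 0, with a median of -0.69, a low of -1.66 for Vwf and -1.27 for Pf4, and 0 passed with limma. Without pool 2 the median was 0.54, Gp9 stood at 1.36, Gp1bb at 1.19 and Pf4 at 1.08, and Gp5 alone stayed below 0 at -0.12.

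**Figure D3:**
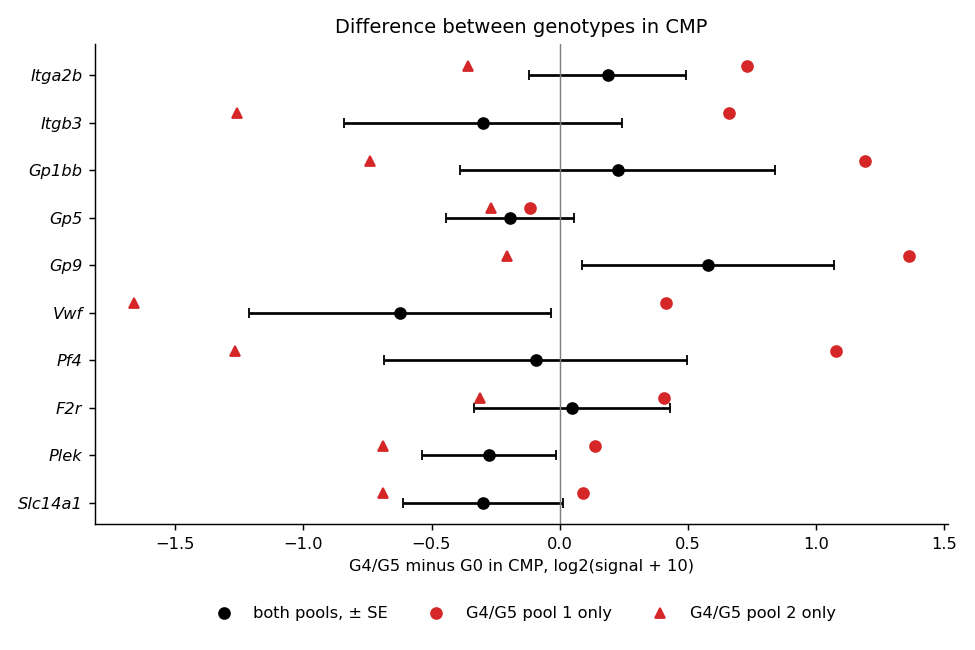
Difference G4/G5 minus G0 in CMP on the log2(signal + 10) scale. Black points with standard errors use both G4/G5 pools, red circles G4/G5 pool 1 only and red triangles G4/G5 pool 2 only. Every triangle lies below 0 and every circle except that of Gp5 above 0.

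Between genotypes in GMP, 0 of the 10 genes passed, and 0% of all genes did. At an unadjusted p under 0.05, 1 of the 10, Slc14a1, was below 0 (-0.73 ± 0.31, limma adjusted p = 0.620), against 7.87% of all genes in either direction. The G4/G5 GMP arrays were lower without overlap for 4 genes, Pf4, Slc14a1, Itga2b and Gp5, a pattern 26.5% of all genes had, and higher without overlap for Itgb3, as for 28.8%. Pf4 had the most negative difference, -0.80 ± 0.59 (limma adjusted p = 0.727), and Itgb3 the most positive, 0.55 ± 0.54. Fitted on the 4 GMP arrays alone, Pf4 passed (limma adjusted p = 0.0219), as did 360 of all 8886 genes. The interaction, which asks whether the genotype difference differs between GMP and CMP, passed for 0 of the 10 and for 0% of all genes, and 0 of the 10 had an unadjusted p under 0.05 (3.97% of all genes did). It ran from -0.71 for Pf4 to 0.85 for Itgb3. Without G4/G5 CMP pool 2 it was -1.88 for Pf4, and without pool 1 it ran from -0.13 for Itga2b to 1.81 for Itgb3.

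The largest spread of these genes within a group lay between the 2 pools of G4/G5 CMP. All 10 were brighter in pool 1, as were 44.5% of all genes tested, and 6 by more than 1 on the log2 scale, as were 2.93%. The difference between pools had a median of 1.33 over the 10 genes and of -0.05 over all genes. It was largest for Pf4 (2.34), Vwf (2.08), Gp1bb (1.93), Itgb3 (1.92) and Gp9 (1.57), and smallest for Gp5 (0.15). As ratios of signals, pool 1 over pool 2 was 5.75 for Vwf, 5.21 for Pf4, 4.93 for Itgb3 and 4.44 for Gp1bb. In G0 CMP, 8 of the 10 were brighter in pool 1 (46.8% of all genes), 2 of them, Gp1bb and F2r, by more than 1 (0.81%), with a median of 0.40. In GMP, 3 of 10 were brighter in pool 1 in G0 (48.4% of all genes) and 4 of 10 in G4/G5 (47.8%). Medians were -0.14 and -0.12, and no difference was above 1 (0.0675% and 0.0788% of all genes exceeded it). The differences ran from -0.60 to 0.54 in G0 GMP and from -0.47 to 0.60 in G4/G5 GMP. The 5th to 95th percentiles of all genes were -0.46 to 0.33 and -0.39 to 0.31.

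**Figure D4:**
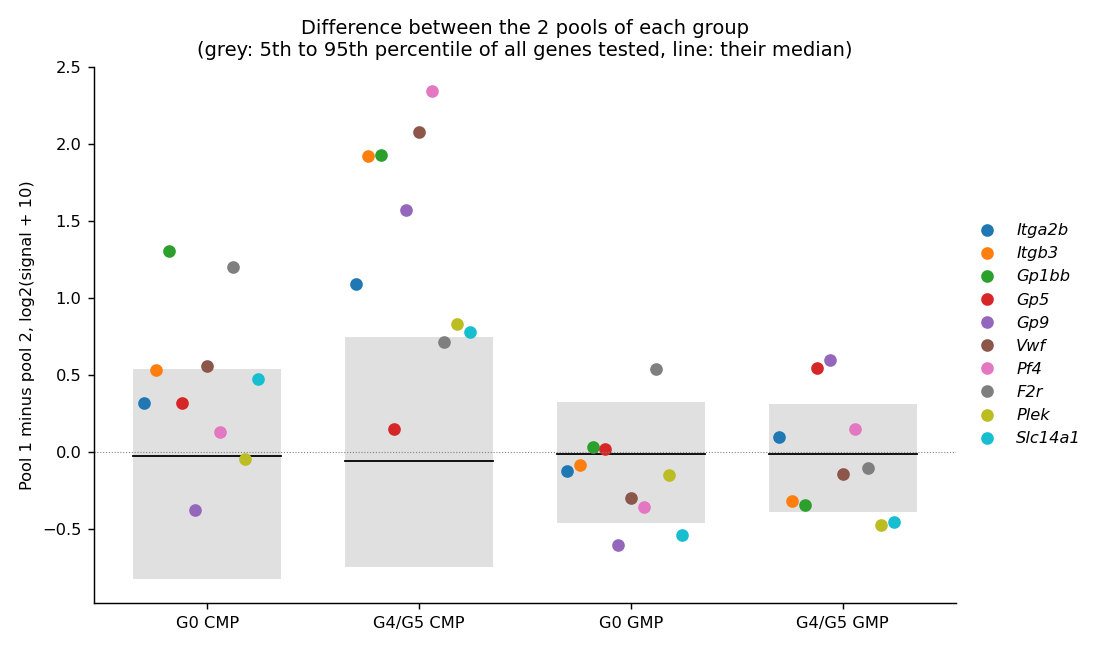
Pool 1 minus pool 2 within each group, on the log2(signal + 10) scale, for the 10 genes (coloured points). The grey box spans the 5th to 95th percentile of all genes tested and the black line is their median. In G4/G5 CMP all 10 points lie above 0, up to 2.34, whereas in both GMP groups they lie within 1 of 0.

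Other markers differed between the same G4/G5 CMP pools. The summed erythroid signal was 6267 in pool 1 and 4059 in pool 2, and that of 6 genes of mature platelets was 497 and 264. Ppbp, a platelet chemokine gene, read 88.6 in pool 1 and 11.6 in pool 2, and Clec1b, the podoplanin receptor CLEC-2, 75.2 and 11.97; no other array brought either to 50. Treml1, of the same 6 genes, went the other way, at 62.1 and 67.5. Rhag, an erythroid membrane protein gene, read 125.7 and 28.8. The erythroid markers Slc25a37 (143.8 and 218.2) and Sptb (7.77 and 15.7) were instead brighter in pool 2. The neutrophil sum given above was also far higher in pool 1, whereas the stem cell sum was 1757 and 1896 and the macrophage sum 2041 and 2239. In G0 CMP, the erythroid sum was 5521 in pool 1 and 4040 in pool 2. In G4/G5 GMP the neutrophil sum was 29651 and 32271, and in G0 GMP 1464 and 3346. Whether the neutrophil or erythroid signal had a part in the members' difference between pools was not tested.

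Beyond the 10 genes, 107 other genes of megakaryocytes and platelets were listed by role in 7 lists, and 70 passed the signal filter. In G0, 21 fell from CMP to GMP and 1 rose, where 10.2% of all genes tested fell and 10.6% rose. The G0 median was -0.39, against -0.02 for all genes. In G4/G5, 18 fell and 0 rose, where 6.29% of all genes fell and 4.18% rose. The G4/G5 median was -0.41, against -0.04 for all genes. Esam, Treml1, Mmrn1, Prkcq, Rab27b, Slc35d3 and Slamf1, which fell in G0, were below 50 on every GMP array. They passed the filter only through CMP arrays, so the filter itself favoured a fall in these. Of 7 adhesion receptors tested, 2 fell in each genotype: Esam, an endothelial and platelet junction protein (-1.77 ± 0.22 in G0, limma adjusted p = 0.00346), and Treml1, an alpha granule receptor (-1.38 ± 0.35, limma adjusted p = 0.0289). Of 4 G protein coupled and ion channel receptors, 0 passed in either genotype with limma, and 0 in G0 and 2 in G4/G5 had an unadjusted p under 0.05, as did 36.5% and 29.4% of all genes. Those 2 lay in opposite directions, the ATP-gated channel P2rx1 at -1.01 and the prostacyclin receptor Ptgir at 0.73. Of 8 secreted proteins, Mmrn1 (multimerin 1, -2.69 ± 0.28, limma adjusted p = 0.00187) and Angpt1 (angiopoietin 1, -2.58 ± 0.17, limma adjusted p = 0.00048) fell in both genotypes. F13a1, the coagulation factor XIII A chain, which monocytes also make, rose in G0 (1.65 ± 0.41, limma adjusted p = 0.0258) and did not pass in G4/G5.

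Signalling genes gave the longest list. Of 21 tested, 9 fell in G0 and 7 in G4/G5, and 0 rose, where 10.2% and 6.29% of all genes fell. Lat, the adaptor of the collagen receptor pathway, had G0 signals of 201.5 and 196.7 in CMP and 66.0 and 69.1 in GMP and fell by 1.43 ± 0.17 (limma adjusted p = 0.0027). In G4/G5, Prkcq, which encodes protein kinase C theta, fell by 2.36 ± 0.37 (limma adjusted p = 0.01). Its G4/G5 signals were dim, 50.7 and 45.7 in CMP and 1.44 and 1.17 in GMP, and it passed the filter only through CMP arrays. Of 16 genes of the cytoskeleton and of granule formation, 4 fell in G0 and 3 in G4/G5, among them Rab27b, a GTPase of dense granule formation (-1.86 ± 0.25 in G0, limma adjusted p = 0.00419). Of 5 eicosanoid and related enzymes, 0 passed with limma, and 3 in G0 and 1 in G4/G5 had an unadjusted p under 0.05, the threshold that 36.5% and 29.4% of all genes met. Of 9 growth receptors and surface proteins, 4 fell in each genotype, Muc13, Slamf1 and Eng in both, with Kit in G0 and Epor in G4/G5.

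Transcription factors of the megakaryocyte and erythroid lineages were counted apart. Of 19 tested, 10 fell from CMP to GMP in each genotype and 0 rose, where 10.2% (G0) and 6.29% (G4/G5) of all genes fell. Zfpm1, which encodes FOG1, had G0 signals of 249.3 and 257.5 in CMP and 47.6 and 52.0 in GMP, and fell by 2.14 ± 0.17 (limma adjusted p = 0.000789). Tal1, a helix-loop-helix factor of both lineages, fell by 1.19 ± 0.14 (limma adjusted p = 0.00263). Gfi1b, a repressor needed for both lineages, fell by 1.88 ± 0.23 (limma adjusted p = 0.00313), and Mecom (EVI1), which stem cells also express, fell by 2.46 ± 0.31 (limma adjusted p = 0.00321). Mecom was below 50 on every GMP array and so passed the filter only through CMP arrays. Gata1 and Fli1 were chosen after their values were seen, because their families' letters were searched in the promoters. Gata1 fell by 1.95 ± 0.33 (limma adjusted p = 0.0082), whereas Fli1, the ETS factor of megakaryocytes, had -0.49 ± 0.17 and did not pass (limma adjusted p = 0.075). In both genotype comparisons and the interaction, 0 of the 70 genes and 0 of the 19 factors passed with limma. At an unadjusted p under 0.05 there were 13 of the 70 in CMP (9 above 0 and 4 below), 9 in GMP (1 above and 8 below) and 4 in the interaction, and of the 19 factors 1, 3 and 2. The shares of all genes were 13.4%, 7.87% and 3.97%. Between genotypes, the smallest p in CMP belonged to Mmrn1, with 196.2 and 172.6 (G0) against 70.0 and 66.1 (G4/G5) (-1.31 ± 0.28, limma adjusted p = 0.229), and to Selp, P-selectin, with 87.5 and 68.7 (G0) against 240.0 and 150.0 (G4/G5) (1.19 ± 0.27, limma adjusted p = 0.237). Neither pair of groups overlapped, and they lay in opposite directions.

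**Figure D5:**
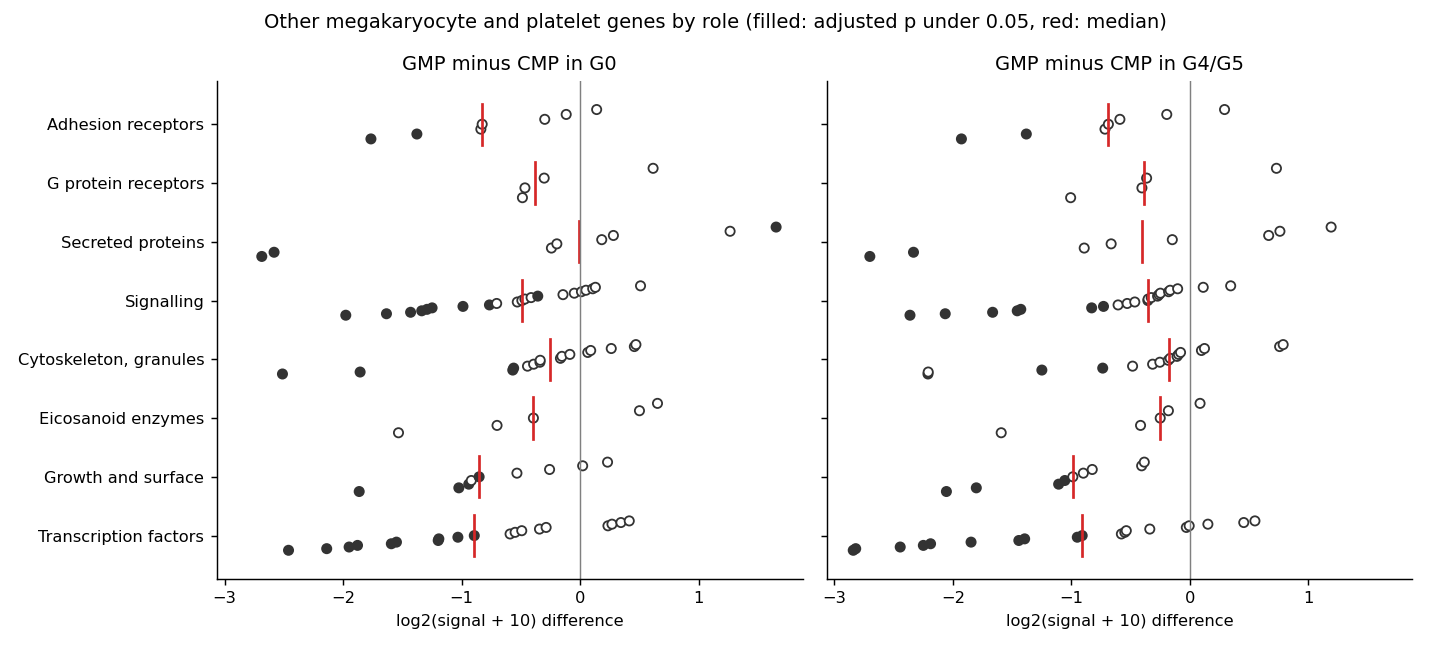
Difference GMP minus CMP on the log2(signal + 10) scale for each tested gene of the 7 role lists and of the transcription factors, in G0 (left) and G4/G5 (right). Filled points have a limma adjusted p under 0.05, red bars are list medians, and points are offset vertically so that they can be seen. Filled points lie below 0 except F13a1 in G0, and the transcription factors hold 10 filled points in each panel.

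The 10 genes were correlated over the 8 arrays, which they share. Pearson r between pairs of them ran from 0.70 (Itgb3 and Gp5) to 0.98 (Itga2b and Pf4), with a median of 0.90 over 45 pairs. The difference between CMP and GMP arrays enters every r. Within a group the genes varied more: pool 1 minus pool 2 ran from -0.37 (Gp9) to 1.31 (Gp1bb) in G0 CMP. In G4/G5 CMP it ran from 0.15 (Gp5) to 2.34 (Pf4). Among all other genes tested, those nearest to the mean of the 10 were Aqp9, Mylk3 and Ube2cbp (r = 0.99) and Slc35d3, Apoe, Ugcg, Med13, Tgfbr3, Tmem123 and Nckap1 (r = 0.98). Slc35d3, a transporter needed for dense granules in mice, had signals in CMP of 139.3 and 79.7 (G0) and of 193.6 and 27.3 (G4/G5), and in GMP of 8.16 and 12.6 (G0) and of 12.3 and 5.98 (G4/G5). Because Slc35d3 was picked by its likeness to the members over these arrays, its brighter G4/G5 CMP pool 1 is not a separate result. Tgfbr3, a transforming growth factor beta co-receptor, had CMP signals of 665.8 and 297.8 (G0) and of 534.8 and 239.1 (G4/G5), against 58.9 and 82.7 (G0) and 44.4 and 58.4 (G4/G5) in GMP. For single members, the nearest gene was Slc35d3 for Vwf (r = 0.99), Cd55 for F2r (r = 0.996) and Osbpl1a for Gp5 (r = 0.99); Zfpm1 was the next for Gp5 (r = 0.99).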

How the data were processed

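RNA of 8 sorted progenitor samples, 4 groups of 2 pools, was amplified with a 3' kit from 5 to 10 ng and hybridised to Affymetrix Mouse Genome arrays, per the labels and the series text. The deposited values are MAS5 intensities on a linear scale, which the authors scaled to a target of 100, per the series text and the submitters' processing notes. Probe-level values and detection calls were not used here, and precision is limited by the number of arrays. From the deposited table of 45101 probe sets, log2(signal + 10) was taken, and arrays were not normalized again. Genes entered the fit if their brightest single-symbol probe set, which stood for them, reached 50 on 2 or more arrays. limma 3.58.1 in R 4.3.3 fitted 1 mean per group over all 8 arrays (4 residual degrees of freedom) with an intensity trend. p-values were adjusted by Benjamini-Hochberg over all 8886 genes at a threshold of 0.05, and every adjusted p is limma's. The 5 comparisons were GMP against CMP in each genotype, G4/G5 against G0 in each progenitor, and their interaction.

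The series text pairs same-numbered G0 and G4/G5 pools of a cell type. Deviations of same-numbered pools from their group means correlated at r = 0.25 in CMP and 0.14 in GMP over 8886 genes. Between CMP and GMP groups, r ran from -0.23 (G4/G5 CMP with G0 GMP) to 0.22 (G0 CMP with G0 GMP). These values therefore do not tell paired pools from others. No source used here says whether CMP and GMP pools shared mice. The members and lists were chosen with earlier results of these data known, so counts over them are descriptions. Named genes are the 10 members, from each role list up to 4 genes with the smallest limma p in a comparison, whether or not they passed, and the genes nearest in pattern by Pearson r. Other genes of the lists, and markers set beside a result, were named after their values were seen. The limma fit was tested on simulated data, for GMP against CMP in G0 only. Figures were drawn with Python 3.11.15 and matplotlib 3.10.9.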

Additional observations from a re-analysis of the deposited data

How the results depend on the processing

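With 2 pools per group, a single array decides many values. The number of the 10 genes falling from CMP to GMP in G0 was 5, and became 8 with a replicate block within cell type, 10 on the 4 G0 arrays alone, and between 4 and 10 when each array was left out; the lone array left in a group is then assumed to vary like the others. In G4/G5 it was 7, and became 4 without a signal filter, 4 on the 4 G4/G5 arrays alone, and between 3 and 10 when arrays were left out. Between genotypes the count of 0 in CMP, and of 0 in the interaction, became 0 to 1 when arrays were left out, and that in GMP became 1 on the 4 GMP arrays alone. The replicate block, within cell type or shared by both, left the genotype and interaction counts at 0; shared by both, it gave 5 in G0 and 8 in G4/G5, adding Gp1bb (limma adjusted p = 0.0491). Between progenitors in G0, 2356 of all 8886 genes passed with the block within cell type and 1616 on the 4 G0 arrays alone. Of all genes, 1845 passed between progenitors in G0 and 67 to 2551 when arrays were left out. In G4/G5, 930 passed, against 492 without a filter, 428 on 4 arrays, 1465 with the block within cell type and 65 to 1433 when arrays were left out. Between genotypes, 1 gene passed in CMP (0 to 5 under other settings, 0 to 425 when arrays were left out) and 0 in GMP (360 on the 4 GMP arrays, 0 to 55 when arrays were left out), and 0 in the interaction (0 to 11 when arrays were left out).

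Signs were stable between progenitors except for Itgb3 in G4/G5 (-1.67 to 0.25 when arrays were left out). Between genotypes in CMP they turned for 9 genes when arrays were left out: Itga2b (-0.36 to 0.73), Itgb3 (-1.26 to 0.66), Gp1bb (-0.74 to 1.19), Gp9 (-0.21 to 1.36), Vwf (-1.66 to 0.42), Pf4 (-1.27 to 1.08), F2r (-0.55 to 0.65), Plek (-0.69 to 0.14) and Slc14a1 (-0.69 to 0.092). F2r also turned under quantile normalization (-0.040, limma adjusted p = 0.973). In GMP, Gp1bb (-0.27 to 0.070), Gp9 (-0.17 to 0.43), Vwf (-0.27 to 0.029) and Plek (-0.18 to 0.29) turned. In the interaction, Itgb3 (-0.11 to 1.81), Gp1bb (-1.29 to 0.64), Gp5 (-0.45 to 0.091), Gp9 (-1.23 to 0.34), Vwf (-0.54 to 1.54), Pf4 (-1.88 to 0.46), F2r (-0.97 to 0.24) and Plek (-0.081 to 0.75) turned. The cause was not tested. A filter of 100 left 8 of the genes and leaving out _s_at and _x_at probe sets left 9, without F2r; the interaction cannot be fitted on 4 arrays. Signals below 50 lie near the background of the array, where differences are understated.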
